A study of Mus musculus with 68 samples.

Results

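The PRAME family of the mouse was followed in cumulus cells, in embryos made from them by somatic cell nuclear transfer (SCNT) and in fertilized blastocysts after knockdown of Max or Mcrs1. The members were 10 of the 24421 reference genes in the deposited tables, taken by gene name: Oog1 and Oog3, the 6 copies Pramef25, Pramef6, Gm13078, BC080695, Gm13119 and B020004J07Rik that are known from 2-cell embryos, and Pramel6 and Pramel7, which are known from blastocysts. RNA was sequenced by Smart-seq2, which copies polyadenylated RNA from a few cells, here 10 blastomeres in a reaction. There were 3 libraries of cumulus cells (CC), the untreated nuclear donors, and 53 of SCNT embryos: 5 at the 4-cell stage (4C) and 6 each at 6 h and 14 h post activation (6 hpa, 14 hpa), early and late 2-cell (E2C, L2C), 8-cell (8C), morula, and from blastocysts the ICM (inner cell mass) and the TE (trophectoderm, the outer layer). Oocytes came from BDF1 mice, a B6D2F1 hybrid of 8 to 10 weeks according to the methods, which give C57BL/6j parents for fertilized embryos, and every SCNT embryo had been activated in SrCl2 with cytochalasin B. Another 12 libraries came from ICM and TE of fertilized embryos injected as zygotes with a morpholino (MO), an oligonucleotide that blocks a transcript, against Max, against Mcrs1 or of random sequence as control, with 2 libraries in each of 6 groups. Max is the partner of MYC family factors and Mcrs1 a subunit of the NSL acetyltransferase complex. For the controls the labels give only control and untreated, and the treatment protocol names the random morpholino. The methods give a lower concentration for the Mcrs1 MO than for the Max MO in the sequenced embryos. A figure legend of the study gives a higher concentration for the control MO than for either. Knockdown and MO dose therefore cannot be told apart in these libraries. The SCNT libraries show how each member moved from the donor cell to the blastocyst, and the MO libraries whether loss of Max or Mcrs1 went with a different level.

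PRAME family proteins are built of leucine-rich repeats, and in the mouse the family has grown by repeated duplication into a large group of genes that are used in germ cells and early embryos. Oog1 and Oog3 are transcribed in the growing oocyte and their RNA is handed to the embryo, where maternal RNA is cleared around the 2-cell stage as the genome of the embryo is switched on. Pramel7 is known to hold pluripotent cells of the ICM at low DNA methylation, and Pramel6 is its neighbour with related use in pluripotent cells. For the 6 Pramef copies no molecular role is given here.

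By the annotation (mm10, GRCm38.p6), 7 members lay on chromosome 4, and 22 of the 36 PRAME family genes of the tables shared the interval chr4:143394441-144408464. That cluster held BC080695 (chr4:143567467-143573798, plus strand), Gm13078 (chr4:143719451-143729158, plus), Pramef6 (chr4:143894237-143900380, minus), Pramef25 (chr4:143948183-143951016, minus), Oog3 (chr4:144157556-144162651, minus) and Gm13119 (chr4:144357964-144364419, plus). B020004J07Rik stood apart on the same chromosome (chr4:101834969-101844022, minus), Oog1 was on chromosome 12 (chr12:87602665-87608845, plus), and Pramel7 (chr2:87489088-87492418, minus) and Pramel6 (chr2:87508458-87510865, plus) were neighbours on chromosome 2. The coding sequences were 1422 to 1500 bases long in all 10. BC080695 and Gm13119 were 96.7% identical, Gm13078 and Pramef6 95.7%, BC080695 and Pramef25 94.4% and Gm13119 and Pramef25 94.3%, against 80.4% for Oog1 and Oog3 and 57.4% for Pramel6 and Pramel7.

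Such identity bears on the values, because a read can be placed on the wrong copy. Of all 150-base windows of its transcript, the read length, Oog1 shared 88.4% with Gm10436, Gm13023 or Gm2042, so its level is uncertain beyond that group of genes. BC080695 shared 32.7% of its windows with Gm13040, Gm13043, Gm13057 or Pramef25, and Pramef6 shared 10.1% with Gm13083. The shares were 8.16% for Oog3, 6.71% for Pramef25, 5.45% for Gm13119 and 0.876% for B020004J07Rik. For Gm13078, Pramel6 and Pramel7 no window occurred in another gene, so a read of full length with no mismatch would be particular to them.

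The sequence just before the start site was alike in some of these pairs and not in others. The 100 bases before the RefSeq start site (GRCm38.p6) follow for the pairs that were most alike and for Pramel7, each read 5′ to 3′ on the strand of its gene, with the letters TATAAA, where they occur, in capitals. RefSeq lists Gm13078 as Pramel24, Pramef6 as Pramel11, BC080695 as Pramel20 and Gm13119 as Pramel31.
Gm13078, chr4:143719351-143719450, plus strand: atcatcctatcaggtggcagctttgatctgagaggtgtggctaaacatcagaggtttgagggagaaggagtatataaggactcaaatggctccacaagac
Pramef6, chr4:143900381-143900480, minus strand: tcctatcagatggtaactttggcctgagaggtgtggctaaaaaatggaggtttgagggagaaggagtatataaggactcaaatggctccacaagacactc
BC080695, chr4:143567367-143567466, plus strand: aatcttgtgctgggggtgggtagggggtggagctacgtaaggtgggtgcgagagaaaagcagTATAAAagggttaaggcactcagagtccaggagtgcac
Gm13119, chr4:144357864-144357963, plus strand: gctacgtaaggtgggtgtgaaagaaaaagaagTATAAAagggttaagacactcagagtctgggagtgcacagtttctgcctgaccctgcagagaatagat
Oog1, chr12:87602565-87602664, plus strand: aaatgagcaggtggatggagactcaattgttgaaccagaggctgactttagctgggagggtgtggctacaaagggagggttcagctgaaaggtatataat
Oog3, chr4:144162652-144162751, minus strand: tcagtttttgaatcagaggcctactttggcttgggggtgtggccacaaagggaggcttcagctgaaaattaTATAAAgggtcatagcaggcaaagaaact
Pramel7, chr2:87492419-87492518, minus strand: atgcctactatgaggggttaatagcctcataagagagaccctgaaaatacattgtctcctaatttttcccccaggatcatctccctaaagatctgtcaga

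Over the 250 bases before the start, Gm13078 and Pramef6 were 85.4% identical and shared an unbroken run of 50 bases, which opened at position -50 in Gm13078 and -54 in Pramef6. BC080695 and Gm13119 were 72.3% identical with a shared run of 47 bases, and Oog1 and Oog3 were 65.9% identical. Pramef25, alike in coding sequence to BC080695 and Gm13119, was only 44.7% and 46.9% identical to them here. TATAAA was found on the gene's own strand from -38 to -33 in BC080695, from -68 to -63 in Gm13119 and from -29 to -24 in Oog3, so that 3 of the 10 members held it, and 12.4% of 32851 RefSeq promoters of the same length did. GGATTA, the core of Obox and Otx type homeodomain sites, was found from -66 to -61 in B020004J07Rik and on the other strand from -103 to -98 in Pramef6, and in 6.25% of promoters. Neither CACGTG, the E-box known for MYC and MAX (6.02% of promoters), nor the Dux type site searched (0.177%) was found in any member, with both strands searched. The 10 promoters had a GC content of 40.0% to 43.2% and 0 to 2 CpG, and over all promoters the medians were 52.4% and 6. For Pramel6 the RefSeq start site lay 1893 bases before the start of its row in the tables, so its letters are not shown.

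Values are TPM, transcripts per 1000000, as deposited. They are scaled to length, so members can be set beside each other. Aligned bases ran from 1.00 to 5.17 gigabases per library, and the reference genes held 30.4% to 94.4% of the TPM, the rest being on loci assembled in that library alone. L2C replicate 1 was lowest at 30.4% and had 28.4 TPM over 8 markers of 2-cell embryos, where the other L2C libraries had 238 to 659. The same sum was 380 to 744 TPM at 6 hpa and 197 to 586 TPM at 14 hpa. It is therefore not particular to the 2-cell stage. The changes to and from L2C are also given without L2C replicate 1. Morula replicate 3 had 191 TPM of these markers and the other morula libraries 3.61 to 9.24. The ICM library of control MO replicate 1 had 17190 TPM over 8 TE markers, near the 20340 to 22140 TPM of the 2 control TE libraries, against 645 TPM in replicate 2. Both control ICM libraries had 1430 and 1909 TPM over 8 ICM markers, where control TE had 237 and 355 TPM, so replicate 1 held the markers of both lineages. Markers of the oocyte were near 0 in CC, where 5 of 10 were at 0 and the sum was at most 2.39 TPM, and markers of cumulus cells ran from 1835 to 3124 TPM there. Fewer cells with a transcript and less of it per cell cannot be told apart in these libraries, and a value of 0 can be a missed gene. Differences were tested with limma on log2(TPM + 1), and a call needed both an adjusted p under 0.05 (Benjamini-Hochberg) and a 2-fold change or more. The labels do not say that replicates came from separate cultures, so the p-values measure the spread between these libraries, which may be technical.

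**Figure D1:**
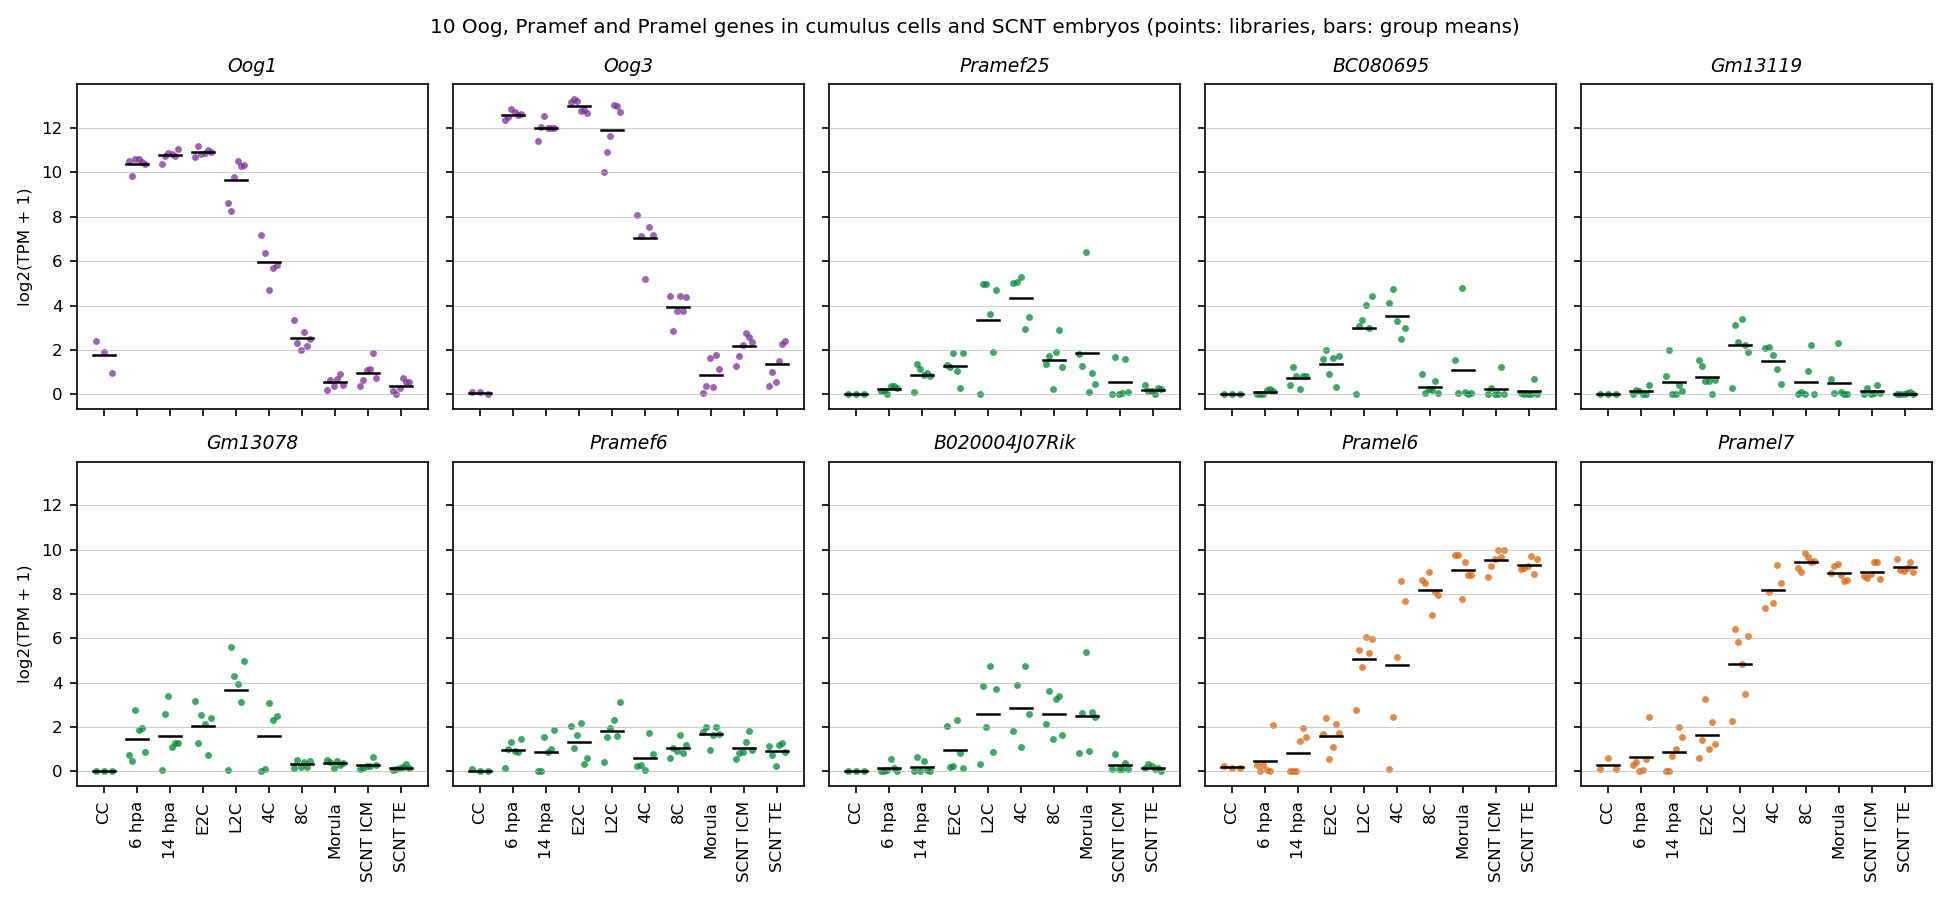
TPM of the 10 members in each of the 56 libraries of CC and SCNT embryos, on a log scale after adding 1, with a point for each library and a short bar at each group mean. Oog1 and Oog3 are low in CC, high from 6 hpa to L2C and low from 8C on. Pramel6 and Pramel7 are high from 8C on, 5 of the Pramef copies have their highest bar at L2C or 4C, and Pramef6 stays low.

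Oog1 and Oog3 were the most abundant members by far in the first cell cycles, and both fell at each step from L2C to the morula. From E2C to L2C both were called lower, but for Oog3 this depended on the libraries and the scaling. Their summed TPM was 7655 ± 884 at 6 hpa, 10150 ± 1585 at E2C, 226 ± 124 at 4C and 1.52 ± 1.14 at the morula stage (mean ± SD, n = 6, and 5 at 4C). In CC, Oog1 was at 4.24, 2.78 and 0.941 TPM and Oog3 at 0.068, 0.0868 and 0 TPM. At 6 hpa, Oog1 ranged from 907 to 1562, with a median of 1436 TPM and Oog3 from 5293 to 7457, with a median of 6173 TPM. The donor cells therefore held next to none of either RNA, and every embryo library at 6 hpa lay far above every CC library. The difference from CC to 6 hpa was 8.64 (SE 0.39, adjusted p = 1.6e-26) on the log2 scale for Oog1 and 12.54 (SE 0.49, adjusted p = 5.9e-29) for Oog3. Of the 10 members, 3 were called higher at 6 hpa than in CC and none lower, where 25.8% of all 12084 genes tested were called higher and 35.6% lower. The member called beside the Oog genes was Gm13078.

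From 6 hpa to 14 hpa and from 14 hpa to E2C no change of the Oog genes was called. At 14 hpa, Oog1 ranged from 1349 to 2121, with a median of 1788 TPM and Oog3 from 2743 to 5910, with a median of 4149 TPM, and at E2C Oog1 ranged from 1636 to 2334, with a median of 1893 TPM and Oog3 from 6505 to 10080, with a median of 8144 TPM. Same-numbered libraries of 6 hpa and 14 hpa deviated together over all genes, and Oog3 was lower at 14 hpa in 6 of 6 such pairs, by -0.60 with an adjusted p of 0.415 by limma and of 0.344 with the replicate number as a block. Oog3 was higher in every E2C library than in every 14 hpa library, but the change of 0.98 (SE 0.40, adjusted p = 0.149) was not called. None of the 10 members was called from 6 hpa to 14 hpa (6.17% of all genes called higher, 5.02% lower; unadjusted p under 0.05 in 0 members) or from 14 hpa to E2C (2.9% and 3.1%; unadjusted p under 0.05 in 1 member). The means of Oog3 ran in the order E2C, 6 hpa, L2C and 14 hpa, and of the neighbours in it 6 hpa and L2C were compared and not called apart, at -0.71 (SE 0.40, adjusted p = 0.138).

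At L2C the Oog genes spread widely. Oog1 was at 396, 309.8, 875, 1465, 1262 and 1304 TPM and Oog3 at 1047, 1954, 3226, 8554, 8207 and 6787 TPM in replicates 1 to 6. Replicates 1 to 3 were low and replicates 4 to 6 high for Oog3, with the latter inside the range of E2C. From E2C to L2C, Oog1 changed by -1.28 (SE 0.31, adjusted p = 8.8e-04) and Oog3 by -1.08 (SE 0.40, adjusted p = 0.0276), both called. Over the alternatives tried the Oog3 value ran down to -2.35 in replicates 1 to 3 and up to 0.21 with quantile normalization. Without L2C replicate 1 the values were -1.07 with an adjusted p of 0.00568 for Oog1 and -0.70 with an adjusted p of 0.153 for Oog3. The Oog3 call was also lost without E2C replicate 2 (-1.02 with an adjusted p of 0.0529), L2C replicate 2 (-0.89 with an adjusted p of 0.0943) or L2C replicate 3 (-1.03 with an adjusted p of 0.0532). In replicates 4 to 6 alone the change of Oog3 was 0.19 with an adjusted p of 0.6. The share of reference genes in the TPM was lower in L2C replicate 1 than elsewhere, and with TPM rescaled over the reference genes neither Oog gene was called, at -0.94 with an adjusted p of 0.0134 for Oog1 and -0.74 with an adjusted p of 0.11 for Oog3.

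The steep loss came between L2C and 8C. At 4C, Oog1 was at 144, 81.9, 25.4, 50.7 and 56.6 TPM and Oog3 at 266, 141, 35.2, 186 and 146 TPM, and at 8C they ranged from 3.03 to 9.24, with a median of 4.32 and from 6.13 to 20.8, with a median of 16.3 TPM. No 4C library reached the lowest L2C library and no 8C library the lowest 4C library for either gene. The changes were -3.68 (SE 0.33, adjusted p = 1.4e-13) for Oog1 and -4.88 (SE 0.42, adjusted p = 4.1e-14) for Oog3 from L2C to 4C, -3.43 (SE 0.33, adjusted p = 2.0e-11) and -3.10 (SE 0.42, adjusted p = 2.1e-07) from 4C to 8C, and -1.99 (SE 0.31, adjusted p = 7.1e-06) and -3.05 (SE 0.40, adjusted p = 1.5e-07) from 8C to the morula. At the morula stage both were near the floor of the tables, Oog1 from 0.154 to 0.9, with a median of 0.438 TPM and Oog3 from 0.043 to 2.41, with a median of 0.757 TPM. The 10 markers of the oocyte and of maternal RNA fell over the same stages, from a median sum of 2056 TPM at E2C to 1044 at L2C, 69.7 at 4C and 30.5 at 8C. At E2C replicates 1 to 3 had 1060 to 1577 TPM of them and replicates 4 to 6 had 2536 to 2725 TPM. At 14 hpa these sets had 1197 to 1760 and 3622 to 4305 TPM, and at L2C and 8C they overlapped. No label says whether the sets were made apart, and the main fit took all libraries of a group as alike. Oog1 and Oog3 were the 2 members called lower from 8C to the morula, with none higher, against 3.53% of all genes lower and 9.05% higher.

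In the SCNT ICM Oog3 was called higher than in the morula, at a few TPM. It was at 1.39, 2.3, 3.68, 5.82, 5.05 and 4.19 TPM in the SCNT ICM libraries and 0.281, 1.01, 0.471, 1.85, 3.86 and 4.26 TPM in the TE libraries. Its rise from the morula to the ICM of 1.28 (SE 0.40, adjusted p = 0.0132) was called, and the ranges of the groups overlapped. That call was lost where only the compared groups were fitted (adjusted p = 0.0743) and in replicates 1 to 3 (1.05 with an adjusted p of 0.146). From the morula to the TE the change of 0.47 (SE 0.40, adjusted p = 0.451) was not called. The level was still far below that of E2C. The difference from TE to ICM was 0.81 (SE 0.40, adjusted p = 0.267) and was not called, and Oog1 stayed at or under 2.59 TPM in both lineages.

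The 6 Pramef copies were scarce beside Oog1 and Oog3 from 6 hpa to L2C and beside the sum of Pramel6 and Pramel7 from 4C on. In 4C replicates 1 to 3 the copies summed to 53.7, 75.3 and 57.7 TPM, above Pramel6 at 0.0848, 4.5 and 34.8 TPM. In 4C replicates 4 and 5 they summed to 45.3 and 27.8 TPM, below Pramel6 at 379.9 and 207 TPM. The mean sum of the 6 copies was highest at L2C and 4C. Their summed TPM was 11.1 ± 5.89 at E2C, 63.7 ± 42.8 at L2C, 52 ± 17.4 at 4C, 11.1 ± 7.12 at 8C, 32.8 ± 61.1 at the morula stage and 1.48 ± 0.712 in the SCNT TE, far under Oog1 and Oog3 at the stages up to L2C. Without L2C replicate 1 the L2C sum was 76.2 ± 33.3 TPM. The morula sum rested on replicate 3, which had 157 TPM, and was 7.92 ± 2.58 TPM without it. All 6 passed the filter of a mean of at least 1 TPM over the 56 libraries, and they passed it through the stages where they were high, so the counts below describe them and support nothing further. From E2C to L2C, 7 of the 10 members were called higher (23.6% of all genes) and 2 lower (11.1%). The higher ones were 5 of the 6 Pramef copies with Pramel6 and Pramel7, and the lower ones Oog1 and Oog3. The median change of the 10 members was 1.62 and that of all genes tested 0.26 on the log2 scale.

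Pramef25, annotated with 3 exons, was among the highest of the copies. It ranged from 0.23 to 2.65, with a median of 1.4 TPM at E2C and stood at 0.0175, 30.3, 30, 11.2, 2.73 and 25.3 TPM at L2C and 31.2, 32, 37.7, 6.79 and 10 TPM at 4C. L2C replicate 1 was at the floor and the other 5 were higher than every E2C library, replicate 5 by a narrow margin. The change from E2C to L2C was 2.10 (SE 0.64, adjusted p = 0.00714), and 2.76 with an adjusted p of 2.2e-04 without L2C replicate 1, while with a pseudocount of 0.1 the call was lost (adjusted p = 0.0787). Its change from L2C to 4C, 0.99 (SE 0.67, adjusted p = 0.248), was not called, and it fell by 2.80 to 8C (SE 0.67, adjusted p = 0.0017), where it ranged from 0.167 to 6.33, with a median of 1.92 TPM. That fall was -4.01 with an adjusted p of 0.00666 in replicates 1 to 3, and -1.21 with an adjusted p of 0.161 and no longer called in the libraries numbered 4 to 6.

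BC080695 followed the same course at lower level. It ranged from 0.268 to 2.98, with a median of 2.1 TPM at E2C, stood at 0.0196, 7.37, 9.14, 15.1, 6.96 and 20.8 TPM at L2C and at 16.5, 25.6, 9, 4.64 and 6.98 TPM at 4C, and ranged from 0.0263 to 0.863, with a median of 0.163 TPM at 8C. The L2C libraries other than replicate 1 were above every E2C library, and every 4C library was above every 8C library. The changes were 1.61 (SE 0.51, adjusted p = 0.00893) from E2C to L2C and -3.19 (SE 0.53, adjusted p = 1.2e-05) from 4C to 8C. The former was lost with a pseudocount of 0.1 (adjusted p = 0.151). Gm13119, its near copy, peaked at L2C with 0.2, 7.67, 4.07, 9.64, 3.69 and 2.78 TPM and had 3.2, 3.39, 2.37, 1.23 and 0.366 TPM at 4C, against 0, 0.535 and 1.91 TPM as lowest, median and highest value at E2C. Its change from E2C to L2C was 1.43 (SE 0.38, adjusted p = 0.00212), and no later step was called, but without L2C replicate 1 the change to 4C was called (-1.09 with an adjusted p of 0.0174).

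Gm13078 and Pramef6 are the pair with the most alike promoters. Gm13078 was already present at 6 hpa, from 0.405 to 5.74, with a median of 1.77 TPM, while it was listed at 0 in all 3 CC libraries. The difference of 1.46 (SE 0.66, adjusted p = 0.0499) was at the edge of the threshold and was lost without CC replicate 1, 2 or 3 (adjusted p = 0.102, 0.101 and 0.0992) or 6 hpa replicate 3, 4 or 5 (adjusted p = 0.119, 0.0786 and 0.0813). It rose from 0.684, 3.87 and 7.95 TPM (lowest, median and highest) at E2C to 0.043, 48, 18.7, 14.6, 7.78 and 31.1 TPM at L2C, and stood at 0, 0.086, 7.42, 3.93 and 4.68 TPM at 4C. The L2C libraries other than replicates 1 and 5 were above every E2C library, and every 4C library was below them. The changes were 1.63 (SE 0.54, adjusted p = 0.0126) and then -2.08 (SE 0.56, adjusted p = 0.0021), and the former was lost without L2C replicate 2 (1.24 with an adjusted p of 0.0678) and with a pseudocount of 0.1 (adjusted p = 0.206). Where only the compared groups were fitted neither was called (adjusted p = 0.087 and 0.0729). Pramef6 was low at all stages, with group means from 0.709 to 3.18 TPM in the embryos. It was the Pramef copy that was not called from E2C to L2C, at 0.52 (SE 0.34, adjusted p = 0.24), and it fell from L2C to 4C by 1.22 (SE 0.36, adjusted p = 0.00498). That fall was under 2-fold without L2C replicate 6, at -0.96 with an adjusted p of 0.0284. It did not pass with quantile normalization (-0.32 with an adjusted p of 0.511), where only the compared groups were fitted (adjusted p = 0.0678), in replicates 1 to 3 (adjusted p = 0.0538) or in those numbered 4 to 6 (adjusted p = 0.0685).

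Like Pramef6, which had a morula median of 2.35 TPM, B020004J07Rik, the copy outside the cluster, was still present in the morula. It was at 0.26, 13.6, 3.01, 26.1, 0.857 and 12 TPM at L2C and 2.58, 14, 1.13, 26.4 and 5.03 TPM at 4C, and the lowest, median and highest values were 1.79, 6.05 and 11.3 TPM at 8C and 0.806, 4.88 and 40.5 TPM at the morula stage. It then ranged from 0.076 to 0.734, with a median of 0.096 TPM in the SCNT ICM and from 0 to 0.277, with a median of 0.109 TPM in the TE. Every morula library was above every blastocyst library. The fall from the morula was -2.21 (SE 0.57, adjusted p = 0.00253) to the ICM and -2.32 (SE 0.57, adjusted p = 0.00159) to the TE, and without morula replicate 3, which was at 40.5 TPM, it was -1.64 with an adjusted p of 0.0213 and -1.74 with an adjusted p of 0.0141. The fall to the ICM was not called with quantile normalization (-1.19 with an adjusted p of 0.135) or in replicates 4 to 6 (-1.82 with an adjusted p of 0.0628). Its rise from E2C to L2C, 1.62 (SE 0.57, adjusted p = 0.0201), was lost without E2C replicate 6 (1.46 with an adjusted p of 0.053), L2C replicate 2 (1.36 with an adjusted p of 0.0688), L2C replicate 4 (1.19 with an adjusted p of 0.0968) or L2C replicate 6 (1.40 with an adjusted p of 0.0584), with quantile normalization (adjusted p = 0.0661) and where only the compared groups were fitted (adjusted p = 0.0755).

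The call of the Pramef copies at L2C depended on which libraries were used. In replicates 1 to 3 alone none of the 6 was called, with changes of 0.65 to 1.86 for the 5 copies other than Pramef6. In replicates 4 to 6 alone 7 members were called higher, and Gm13119 was under the filter and not tested. Without L2C replicate 1 the changes of the other copies were 2.21 for BC080695, 2.35 for Gm13078, 1.82 for Gm13119, 2.07 for B020004J07Rik and 0.80 for Pramef6, of which that of Pramef6 was not called. Without L2C replicate 1 the count was 7 higher and 1 lower, and without L2C replicate 2 it was 4 higher and 1 lower. In the latter fit Gm13119, without its 7.67 TPM in that library, fell under the filter and was not tested. With TPM rescaled over the reference genes it was 7 higher and 0 lower, and with quantile normalization 6 and 0. The share of all genes called was taken in the main fit only. Whether these alternative fits called more or fewer genes as a whole is therefore not known. From 6 hpa to L2C, the span of minor and major genome activation, 7 members were called higher (30.7% of all genes) and none lower (15.7%), again 5 Pramef copies with Pramel6 and Pramel7.

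**Figure D2:**
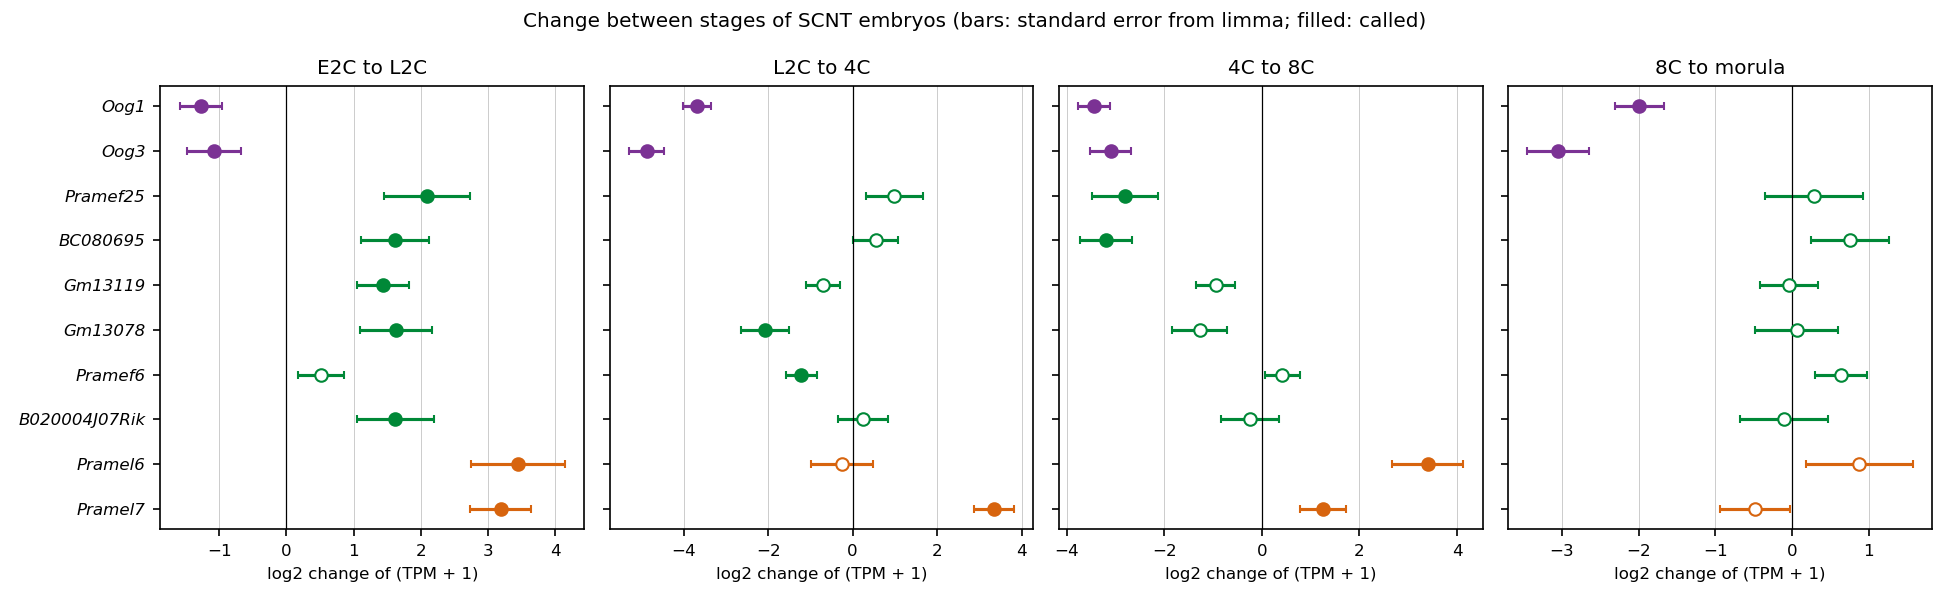
log2 fold change of each member between consecutive groups from limma, as point with a bar of 1 SE, filled where the change was called. Oog1 and Oog3 lie below 0 from E2C to L2C through 8C to morula, Pramel6 and Pramel7 lie above 0 from E2C to L2C, and Pramel7 alone is called higher from L2C to 4C.

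A single morula library stood apart for 4 of the 6 Pramef copies. Morula replicate 3 had 85.3 TPM of Pramef25, 26.6 of BC080695, 40.5 of B020004J07Rik and 3.88 of Gm13119. The other morula libraries were at 0.088 to 2.48 TPM for Pramef25 and at 0 to 1.92 TPM for BC080695. Pramef6, at 0.964 TPM, and Gm13078, at 0.117 TPM, were lowest of the group in morula replicate 3. It was also the morula library with the 2-cell markers, and it had the lowest Pramel6 of the group at 215 TPM. The part of its makeup in these values was not tested. Without it, the change of Pramef25 from the morula to the TE, -1.64 (SE 0.64, adjusted p = 0.0535) and not called, was -0.72 with an adjusted p of 0.379, whereas it was called without morula replicate 4, 5 or 6 (adjusted p = 0.023, 0.0444 and 0.0302) and with the replicate number as a block (adjusted p = 0.0464). From the morula to the SCNT ICM, 1 member was called higher (8.93% of all genes) and 1 lower (15.1%), and to the SCNT TE 0 higher (11%) and 1 lower (10.9%).

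Pramel6 and Pramel7 were called higher at L2C than at E2C and were the most abundant members from 8C to the blastocyst. Their sum was 5.15 ± 2.75 TPM at E2C, 81.7 ± 46.3 at L2C, 449 ± 348 at 4C, 1021 ± 198 at 8C, 1296 ± 308 in the SCNT ICM and 1243 ± 115 in the TE. The lowest, median and highest values at E2C were 0.492, 2.27 and 4.28 TPM for Pramel6 and 0.545, 1.53 and 8.68 TPM for Pramel7. At L2C, Pramel6 was at 5.82, 44.2, 25.4, 65.6, 39.2 and 61.2 TPM and Pramel7 at 3.89, 84.5, 55.7, 27.5, 10.3 and 67 TPM. Every L2C library exceeded every E2C library for Pramel6, and for Pramel7 the low L2C replicate 1 fell inside the range of E2C. The rise was 3.45 (SE 0.70, adjusted p = 6.5e-05) for Pramel6 and 3.19 (SE 0.45, adjusted p = 9.7e-08) for Pramel7, and 3.91 and 3.70 without L2C replicate 1.

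Pramel7 then went up from L2C to 4C, while the step at which Pramel6 went up differed between the libraries. At 4C, Pramel7 was at 167, 270.0, 192, 626 and 366 TPM, above every L2C library, and Pramel6 was at 0.0848, 4.5, 34.8, 379.9 and 207 TPM. The 4C libraries of Pramel6 split, with replicates 1 to 3 within or below the L2C range and replicates 4 and 5 above it. The reference genes held 44.0% to 53.1% of the TPM in those 3 libraries and 73.5% to 75.7% in the other 2, and the part of this in the Pramel6 values was not tested. The change from L2C to 4C was 3.35 (SE 0.48, adjusted p = 6.0e-08) for Pramel7 and -0.25 (SE 0.73, adjusted p = 0.818) for Pramel6. At 4C Pramel7 had the highest median of the members, and Oog3 with a median of 146 TPM lay above Pramel6 with 34.8 TPM. From L2C to 4C, 1 of the 10 members was called higher (11.7% of all genes) and 4 lower (26.5%), which were Oog1, Oog3, Gm13078 and Pramef6. All genes tested had a median change of -0.33 there. Without L2C replicate 1 the changes were 2.84 for Pramel7, -0.71 for Pramel6, -3.88 for Oog1, -5.25 for Oog3, -2.80 for Gm13078 and -1.49 for Pramef6, with all of these but that of Pramel6 called.

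At 8C, Pramel6 ranged from 130.2 to 506, with a median of 318 TPM and Pramel7 from 504 to 912, with a median of 709 TPM. Every 8C library of Pramel6 was above 4C replicates 1 to 3, and 4C replicates 4 and 5 lay within the 8C range. The change from 4C to 8C was 3.40 (SE 0.73, adjusted p = 4.8e-04) for Pramel6, but -0.44 with an adjusted p of 0.576 in the libraries numbered 4 to 6 alone, so the direction rested on 4C replicates 1 to 3. Pramel7 changed by 1.25 (SE 0.48, adjusted p = 0.0498), at the edge of the threshold. Leaving out any of the 4C replicates 1, 2 or 3 or the 8C replicates 1, 3, 4, 5 or 6 gave adjusted p-values of 0.0525 to 0.157. The Pramel7 call was also lost with rescaled TPM (0.78 with an adjusted p of 0.26), with quantile normalization (0.74 with an adjusted p of 0.289) and with the replicate number as a block (1.19 with an adjusted p of 0.0533). From 4C to 8C, 2 of the 10 members were called higher (11.6% of all genes) and 4 lower (8.39%), and the lower ones were Oog1, Oog3, BC080695 and Pramef25.

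From 8C to the blastocyst neither gene was called at any step. Pramel6 ranged from 215 to 877, with a median of 586 TPM in the morula, from 436 to 1016, with a median of 780.3 TPM in the ICM and from 481 to 848, with a median of 598 TPM in the TE. Pramel7 ranged from 387 to 652, with a median of 481, from 414 to 702, with a median of 461 and from 502 to 762, with a median of 556 TPM in the same groups. The groups overlapped throughout. From TE to ICM, Pramel6 changed by 0.23 (SE 0.70, adjusted p = 0.988) and Pramel7 by -0.22 (SE 0.45, adjusted p = 0.934), and none of the 10 members was called (1.54% of all genes higher and 4.25% lower; unadjusted p under 0.05 in 1 member, Oog3). Same-numbered libraries of TE and ICM deviated together. Oog1 and Gm13078 were higher in ICM in 6 of 6 such pairs, and Oog3, Pramef6 and Pramel6 in 5 of 6. Pramel7 was lower in ICM in 5 of 6 pairs, and B020004J07Rik and Pramef25 in 3 of 6. BC080695 was higher in 3 and lower in 1, and Gm13119 higher in 4 and lower in 0. All but Pramel6 and Pramel7 were at a few TPM or under. With the replicate number as a block limma called none, the lowest adjusted p being 0.199 for Oog3. The SCNT ICM libraries had 267 to 786 TPM over 8 ICM markers and the TE libraries 103 to 362, so the ranges of the lineages overlapped on this measure. Over 8 TE markers the SCNT ICM libraries had 2195 to 8834 TPM and the SCNT TE libraries 6160 to 17310 TPM, and these ranges overlapped too.

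**Figure D3:**
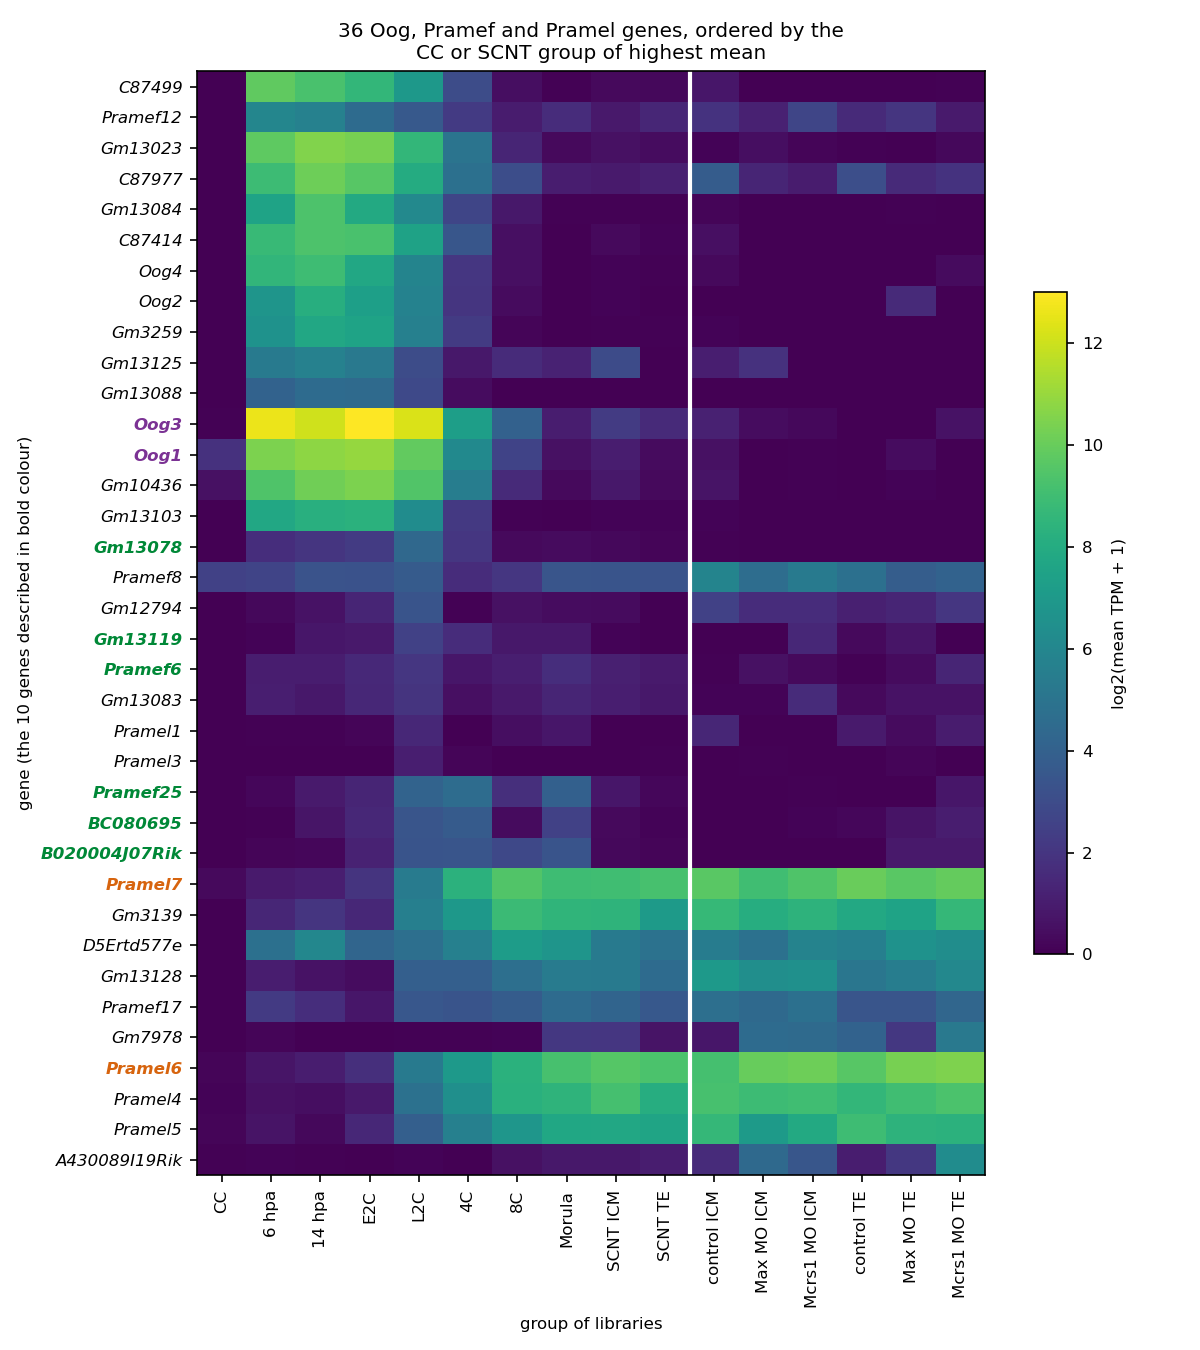
log2 of the mean TPM plus 1 for the 10 members and the 26 other PRAME family genes in the 16 groups, a row for each gene and a column for each group. Oog1 and Oog3 with Gm13023, C87977 and Gm10436 are high from 6 hpa to L2C, and Pramel6 and Pramel7 with Pramel4, Pramel5 and Gm3139 are high from 8C on in SCNT embryos and in fertilized blastocysts.

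In fertilized blastocysts the same members were present and the same members were near 0. Pramel6 was at 632 and 532 TPM in control ICM and 859 and 739 TPM in control TE. Pramel7 was at 1005 and 602 TPM in control ICM and 1121 and 951 TPM in control TE. SCNT and fertilized blastocysts were separate experiments on mice of different strains by the methods, so embryo type, strain and experiment cannot be told apart, and the values stand side by side with no test. Of the 10 members, only Pramel6 and Pramel7 passed the filter of a mean of at least 1 TPM in these 12 libraries. From control TE to control ICM neither was called (1.72% of all 11219 genes higher and 1.2% lower; unadjusted p under 0.05 in 1 of 2). The change of Pramel6 was -0.46 (SE 0.18, adjusted p = 0.16) and that of Pramel7 -0.41 (SE 0.24, adjusted p = 0.345). Both genes were lower in ICM in 2 of 2 same-numbered pairs. With the replicate number as a block in limma the adjusted p was 0.178 for Pramel6 and 0.338 for Pramel7. Without control ICM replicate 1, the library with TE markers, the values were -0.58 with an adjusted p of 0.049 for Pramel6 and -0.78 with an adjusted p of 0.021 for Pramel7.

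The target genes were at lower mean levels with their MO, with limma changes of -2.51 in ICM (adjusted p = 0.0397) and -1.32 in TE (adjusted p = 0.390) for Max and -1.80 in ICM (adjusted p = 0.00333) and -2.53 in TE (adjusted p = 8.7e-04) for Mcrs1, so that the fall of Max in TE did not pass the test. Transcript levels are an indirect check of a morpholino, which acts on splicing or translation.

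Pramel6 was higher by less than 2-fold after Max MO in ICM and after Mcrs1 MO in ICM and TE, and its higher level after Max MO in TE did not pass the test. In ICM it was at 1013 and 995 TPM with Max MO and 1173 and 1044 TPM with Mcrs1 MO. In TE it was at 1229 and 1365 TPM with Max MO and 1249 and 1607 TPM with Mcrs1 MO. Each MO library was above both control libraries of its lineage in all 4 comparisons, and both knockdowns of a lineage are set against the same 2 control libraries. Those controls had the higher MO concentration by the figure legend, and the part of dose in these values was not tested. Markers of the lineages moved as well. The sums over the 8 ICM markers were 1086 and 1191 TPM with Max MO and 455 and 1012 TPM with Mcrs1 MO in ICM, below the 1430 and 1909 TPM of control ICM, and in TE 183 and 248 TPM with Max MO and 453 and 581 TPM with Mcrs1 MO, beside 237 and 355 TPM in control TE. The TE markers summed to 2932 and 6288 TPM in the Max MO ICM and 12460 and 8808 TPM in the Mcrs1 MO ICM, between the control ICM libraries, and to 20870 and 22130 TPM in the Max MO TE and 16350 and 16720 TPM in the Mcrs1 MO TE. Oocyte markers summed to 83.2 and 84.9 TPM in ICM after Max MO, against 23.3 and 35.0 TPM in control ICM. The list of 10 did not move together. In the Max MO ICM 5 markers were at 0 and 3 averaged at least 1 TPM. In control ICM 1 was at 0 and 5 averaged at least 1 TPM, so the higher sum rested on a few genes. The part of these differences in the Pramel6 values was not tested. The changes for Max MO were 0.79 (SE 0.18, adjusted p = 0.00908) in ICM and 0.70 (SE 0.18, adjusted p = 0.0606) in TE. The changes for Mcrs1 MO were 0.93 (SE 0.18, adjusted p = 0.0113) in ICM and 0.83 (SE 0.18, adjusted p = 0.0249) in TE. No change reached 2-fold, so none was called. At any size of change, an adjusted p under 0.05 with a higher level was found for 11% and 6.57% of all genes with Max MO and Mcrs1 MO in ICM and for 1.51% and 2.86% in TE. Levels higher without overlap were found for 23.5% and 23.3% of all genes in ICM, 21.2% and 22% in TE, and 8.05% in all 4 comparisons at once.

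The size of the Pramel6 change moved with single libraries. Without control ICM replicate 1 it was 0.91 with an adjusted p of 0.00526 for Max MO and 1.05 with an adjusted p of 0.00354 for Mcrs1 MO in ICM, and the latter was then called. Over the 4 libraries left out in turn, the adjusted p ran from 0.00526 to 0.0475 for Max MO in ICM, from 0.00354 to 0.0983 for Mcrs1 MO in ICM, from 0.189 to 0.299 for Max MO in TE and from 0.0928 to 0.214 for Mcrs1 MO in TE. All genes tested had a median change of -0.21 with Max MO in ICM, -0.19 with Max MO in TE, -0.05 with Mcrs1 MO in ICM and -0.24 with Mcrs1 MO in TE, so relative to the median gene the Pramel6 changes were larger. The reference genes held 93.6% to 94.4% of the TPM in the 8 MO libraries and 85.5% to 90.3% in the 4 controls, and with TPM rescaled over the reference genes the Pramel6 changes were smaller, at 0.67 and 0.64 for Max MO and 0.81 and 0.77 for Mcrs1 MO in ICM and TE, with adjusted p-values of 0.0178, 0.0752, 0.0198 and 0.0327. With quantile normalization they were 0.48 (adjusted p = 0.0722) and 0.59 (adjusted p = 0.105) for Max MO and 0.69 (adjusted p = 0.033) and 0.66 (adjusted p = 0.0624) for Mcrs1 MO, so that the Mcrs1 MO change in ICM alone had an adjusted p under 0.05, and that one did not where each lineage was fitted alone (adjusted p = 0.0819). No difference in response between ICM and TE was called by the interaction term, 0.09 (SE 0.25, adjusted p = 0.917) for Max MO and 0.10 (SE 0.25, adjusted p = 0.92) for Mcrs1 MO.

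Pramel7, next to Pramel6 on chromosome 2, had no rise that was called. It was at 544 and 477 TPM with Max MO and 751 and 627 TPM with Mcrs1 MO in ICM. In TE it was at 737 and 902 TPM with Max MO and 902 and 1062 TPM with Mcrs1 MO. With Max MO both libraries were below both controls of their lineage, as they were for 33.4% of all genes in ICM and 36.3% in TE, and with Mcrs1 MO the groups overlapped. The changes were -0.61 (SE 0.24, adjusted p = 0.0798) for Max MO and -0.18 (SE 0.24, adjusted p = 0.653) for Mcrs1 MO in ICM, and -0.34 (SE 0.24, adjusted p = 0.465) and -0.08 (SE 0.24, adjusted p = 0.884) in TE. Control ICM replicate 1 had the higher Pramel7 of its pair, and without it the Max MO value in ICM was -0.24 with an adjusted p of 0.381 and the Mcrs1 MO value turned to 0.19 with an adjusted p of 0.52. None of the members was called for Max MO in ICM (8.65% of all genes higher, 15.1% lower; unadjusted p under 0.05 in 2 of the 2 tested), Max MO in TE (1.04% and 1.45%; 1 of 2), Mcrs1 MO in ICM (4.88% and 5.21%; 1 of 2) or Mcrs1 MO in TE (1.77% and 3.31%; 1 of 2). The interactions gave 0 calls of 2 with 0% of all genes called and an unadjusted p under 0.05 in 0 members.

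**Figure D4:**
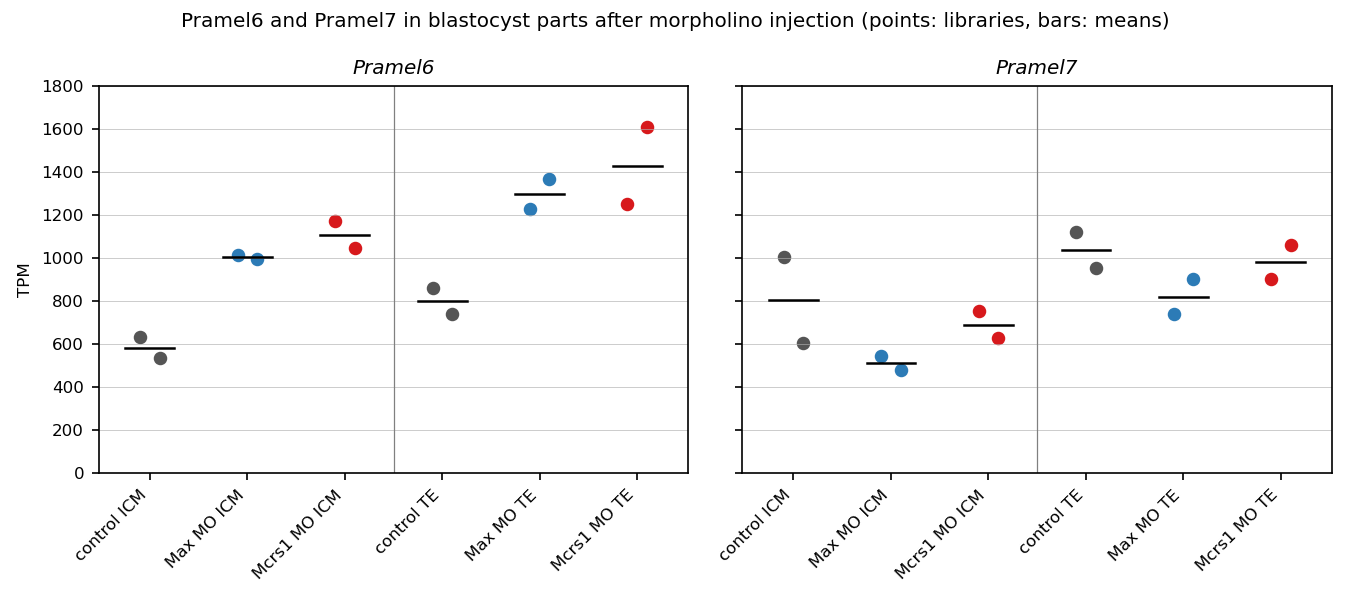
TPM of Pramel6 and Pramel7 in the 12 libraries of fertilized ICM and TE after control, Max or Mcrs1 MO, a point for each library and a bar at the mean of 2. Pramel6 lies above the controls in all 4 knockdown groups, and Pramel7 lies below them with Max MO.

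The Pramef copies and the Oog genes were at or under 2.91 TPM in every one of the 12 libraries and were not tested there. Gm13119 was at 1.32 and 2.1 TPM with Mcrs1 MO in ICM and listed at 0 in both control ICM libraries, while in TE it was listed at 0 in both Mcrs1 MO libraries and at 0 and 0.511 TPM in the controls.

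The 26 other PRAME family genes of the tables were taken by their symbols or RefSeq synonyms. From CC to 6 hpa, 16 of the 22 that passed the filter were called higher and none lower, beside 25.8% and 35.6% of all genes. The changes were largest for C87499, 9.82 (SE 0.47, adjusted p = 4.8e-25), Gm13023, 9.73 (SE 0.46, adjusted p = 3.3e-25), and C87977, 8.89 (SE 0.52, adjusted p = 2.3e-21). The highest group means were 1499 ± 328 TPM for Gm13023 at 14 hpa, 1382 ± 143 TPM for Gm10436 at E2C and 1110 ± 240.4 TPM for C87977 at 14 hpa. From 6 hpa to 14 hpa 3 of 22 were called higher and 0 lower (6.17% and 5.02% of all genes). From 14 hpa to E2C the counts were 0 higher and 3 lower (2.9% and 3.1%). From E2C to L2C 6 of 22 were called higher and 12 lower (23.6% and 11.1% of all genes). The median change of these 22 was -1.38 where the 10 members had 1.62. The counts of higher and lower calls were 5 and 12 from 6 hpa to L2C (30.7% and 15.7% of all genes). They were 3 and 16 from L2C to 4C (11.7% and 26.5%) and 4 and 11 from 4C to 8C (11.6% and 8.39%). From 8C to the morula they were 0 and 2 (9.05% and 3.53%), to the SCNT ICM 0 and 1 (8.93% and 15.1%) and to the SCNT TE 0 and 2 (11% and 10.9%).

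Pramel4, Pramel5, Gm3139 and Gm13128 were low at E2C and higher in the blastocyst, and were picked for naming after their values were seen. Their means were 0.879, 1.76, 1.71 and 0.339 TPM at E2C and 567, 224, 352 and 40.5 TPM in the SCNT ICM. In the MO libraries 12 of the 26 passed the filter. The shares of all genes called higher and lower in ICM were 8.65% and 15.1% for Max MO and 4.88% and 5.21% for Mcrs1 MO. In TE they were 1.04% and 1.45% for Max MO and 1.77% and 3.31% for Mcrs1 MO. With Max MO in ICM, Gm7978 was called higher, 3.45 (SE 0.83, adjusted p = 0.0128), and 3 were called lower, Pramel5 -1.58 (SE 0.23, adjusted p = 0.00146), C87977 -2.14 (SE 0.71, adjusted p = 0.0459) and Pramef8 -1.23 (SE 0.40, adjusted p = 0.0408). Pramel5 was at 367 and 433 TPM in control ICM and at 109 and 161 TPM with Max MO, without overlap and opposite in direction to Pramel6. With Mcrs1 MO, Gm7978 was called higher in ICM, 3.68 (SE 0.83, adjusted p = 0.0214), C87977 lower in ICM, -2.51 (SE 0.71, adjusted p = 0.0441), and A430089I19Rik higher in TE, 4.86 (SE 1.11, adjusted p = 0.0313). Gm7978 was at 1.47 and 0.0404 TPM in control ICM, 37.7 and 6.9 TPM with Max MO and 31.4 and 12 TPM with Mcrs1 MO. In TE it was at 21.5 and 10.7 TPM in the controls, 4.84 and 1.89 TPM with Max MO and 52.4 and 22.3 TPM with Mcrs1 MO, so that the Max MO libraries were below their controls, with a change of -1.98 (SE 0.83, adjusted p = 0.209) that was not called. No other family gene was called for Max MO in TE.

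The genes outside the family whose course was most like that of a member are given by the Pearson correlation of group means of log2(TPM + 1) over the 10 groups of CC and SCNT embryos, among 12052 genes, as a description. The groups share their libraries and their depth between genes. For Oog1 they were Gm2042 (1.0), which shares transcript windows with Oog1, Nexn (0.994) and Arhgap20os (0.993), and for Oog3 Omt2a (0.998), Omt2b (0.997) and Tcl1b3 (0.993). For Pramel6 they were Gca (0.990), Calcoco2 (0.990) and Sord (0.988), and for Pramel7 Plac9b (0.994), Gm9376 (0.994) and Plac9a (0.993). BC080695 was closest to Gm13043 (0.980), Gm13040 (0.972) and Gm13057 (0.972), the genes it shares transcript windows with. Gm13119 was closest to Rbp7 (0.986), Mns1 (0.984) and Cxcl11 (0.979), Gm13078 to Il31 (0.989), Ccdc106 (0.983) and 4930465K10Rik (0.966), and B020004J07Rik to Ficd (0.986), Slc22a20 (0.986) and Tmigd1 (0.980). Pramef25 was closest to Limch1 (0.990), Gm7102 (0.978) and Chit1 (0.970). Pramef6, the flattest member, had the weakest match, Utp14b (0.942), with Prpsap2 (0.927) and Speer4d (0.907) after it.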

How the data were processed

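Labels gave the groups and replicate numbers. For 1 library of 4C the replicate number of the label (5) was used where its table is named otherwise. Reads had been trimmed (Cutadapt 1.16), placed on mm10 (HISAT2) and quantified (StringTie) by the authors. Cufflinks and deepTools stand in the submitters' processing notes with no role given. The authors deposited a table per library with coverage, FPKM and TPM. The deposited TPM, a signal per gene relative to the library, sums to 1000000 over loci assembled in that library, and rows of 24421 reference genes repeat part of it. The deposited FPKM served only with the deposited coverage, whose ratio gives the aligned gigabases. The tables hold no counts, so no count test, interval or floor could be given, and the depth per gene is unknown.

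TPM of the rows of a gene was summed. limma 3.58.1 (R 4.3.3; lmFit, eBayes with a trend) was fitted to log2(TPM + 1) of genes averaging 1 TPM or more, in 56 libraries of 10 groups (12084 genes) and in 12 libraries of 6 groups (11219 genes), with Benjamini-Hochberg adjustment over all genes tested. A fold change on this scale understates low genes. Calls needed an adjusted p under 0.05 and at least 2-fold. The fits were tested on simulated data. Identity of coding sequences and shared 150-base windows were computed from GENCODE vM21 transcripts with Biopython 1.88, since protein sequences were not used here, and promoters are RefSeq's (GRCm38.p6). Python 3.11.15, numpy 2.4.6, pandas 2.3.3 and matplotlib 3.10.9 were used.

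Named were all 10 members, of the other family genes the 3 with the highest group mean and the 3 called with the largest change in each fit, and the 3 genes most like each member. The members and lists were chosen with earlier results of these data known. Alternatives were a pseudocount of 0.1, other filters, rescaled TPM, quantile normalization, the largest row of a gene, a replicate block, smaller fits (fewer groups, or the libraries numbered 1 to 3 or 4 to 6), and each library left out. No 2 libraries held the same values. Same-numbered libraries deviated together, with every correlation over 0.1, from 6 hpa to 14 hpa (lowest 0.142) and between SCNT TE and ICM (lowest 0.130). Control TE and control ICM did so too (0.128), where the 2 pairs give the same value by construction.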

Additional observations from a re-analysis of the deposited data

Results flagged for a closer look

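In 12 of 90 combinations of member and group, with 5 or 6 libraries each, the highest or lowest library stood apart by Dixon's criterion at 95%, which chance alone meets in about 5% of groups. Morula replicate 3 was high for Pramef25 (85.3 TPM), BC080695 (26.6 TPM) and Gm13119 (3.88 TPM) and low for Pramef6 (0.964 TPM), and it also carried the markers of 2-cell embryos. L2C replicate 1, the library with few of those markers, was low for BC080695 (0.0196 TPM). SCNT ICM replicate 5 was high for BC080695 (1.33 TPM) and Gm13078 (0.558 TPM), and SCNT TE replicate 5 for BC080695 (0.603 TPM). At 6 hpa, replicate 6 was high for Pramel6 (3.34 TPM) and Pramel7 (4.48 TPM), replicate 4 for B020004J07Rik (0.497 TPM), and replicate 2 was low for Oog1 (907 TPM). The causes were not tested.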

How the results depend on the processing

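Counts of members called that moved by over 1.5 times were these. They stand without the share of all genes called, which was taken in the main fit only. From E2C to L2C, 9 became 5 with a pseudocount of 0.1, 5 with genes of mean TPM of at least 5, which leaves fewer genes, 4 in replicates 1 to 3, and 5 to 9 with a library left out. In some of the fits with a library left out Gm13119 fell under the filter and was not tested. From 6 hpa to L2C, 7 became 3, and from L2C to 4C, 5 became 3, with genes of mean TPM of at least 5, and the latter was also 3 in the compared groups alone and 3 in replicates 1 to 3. From the morula to the SCNT ICM, 2 became 1 with that filter, 1 in the compared groups and 1 in replicates 4 to 6. To the SCNT TE, 1 became 2 with a pseudocount of 0.1, 2 with the replicate block, 2 in replicates 1 to 3, and 1 to 2 with a library left out. Between SCNT TE and ICM, 0 became 1 with a pseudocount of 0.1 and 2 with quantile normalization. For Mcrs1 MO in ICM, 0 became 1 with all genes above 0 (Gm13119, a gene below the filter), and 0 to 1 with a library left out. The replicate block gave 2 in place of 3 calls from CC to 6 hpa, 5 in place of 6 from 4C to 8C and, as above, 2 in place of 1 from the morula to the SCNT TE. It left the 0 calls from 6 hpa to 14 hpa and between SCNT TE and ICM at 0, and changed no other count.

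Direction turned for Oog3 from E2C to L2C (0.21 with quantile normalization, 0.19 in replicates 4 to 6), Pramel6 from 4C to 8C (-0.44 in replicates 4 to 6), Pramef25 from the morula to the ICM (0.0639 in replicates 4 to 6) and the Pramel6 interaction for Max MO (-0.11 with quantile normalization). With a library left out, Pramel7 ran from -0.55 to 0.19 for Mcrs1 MO in ICM and from -0.20 to 0.0408 in TE. The interactions ran from -0.0341 to 0.21 and -0.0813 to 0.28 for Pramel6 and from -0.64 to 0.10 and -0.47 to 0.27 for Pramel7, with Max and Mcrs1 MO. Of 160 member levels, 23 moved by over 1 SD with rescaled TPM and none with the largest row. The causes were not tested. A group of 2 libraries limits the MO comparisons, and where 1 is left out the lone library is assumed to vary like the other groups.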
